A study of Mus musculus with 8 samples.

Results

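Milk and lactation genes were examined in cells of 4T1, a mammary carcinoma line of the mouse, after sorting. The set held 10 genes taken by symbol from 3 roles: milk proteins (Csn2, Csn3, Lalba and Wap), milk fat secretion (Btn1a1, Xdh, Plin2 and Mfge8) and prolactin signaling (Prlr and Stat5a). Of these, 7 had a row among the 16341 genes counted, 6 of them passed the filter on low counts that left 11717 genes for testing, and 3 had no row. The set was chosen with their values in these same libraries known, so the differences between fractions given for them are a description without a test.

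The cells were separated by SCA1, a surface protein encoded by Ly6a, on magnetic columns after antibody staining. 4T1-Sca1+ and 4T1-Sca1- cells gave 4 RNA libraries each, and both fractions came from the same parental line with no further treatment named. The sort label of both groups adds a CD45-negative gate, and the protocol speaks of stained tumor where the source label gives the parental line. A single line stands here for mammary carcinoma, and the labels do not say whether replicates came from separate cultures or sorts, so p-values measure only the spread between these libraries.

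In the mammary gland, prolactin binds its receptor on secretory luminal cells, the kinase JAK2 is activated, and STAT5 proteins enter the nucleus and switch on milk protein genes. Fat leaves the same cells as droplets wrapped in apical membrane, a step in which butyrophilin in the membrane, xanthine oxidoreductase beneath it and perilipin-2 on the droplet are thought to meet. Caseins, whey proteins and lactose are released by a separate route through secretory vesicles.

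Library depth lay between 15041995 and 16968215 counts for 4T1-Sca1+ and between 13561804 and 16142836 for 4T1-Sca1-. Ly6a, which checks the labels, had between 145 and 193 normalized counts in 4T1-Sca1+ libraries and between 0 and 4.11 in 4T1-Sca1- libraries. A normalized count is a count divided by 1 size factor per library. Luminal keratins Krt8 and Krt18 were abundant in all 8 libraries, whereas Elf5, a transcription factor of milk-secreting luminal cells, had at most 4 counts in any library. Of the markers of other cell types, Ptprc (leukocytes) had at most 4 counts, Krt5 (basal cells) at most 2, and Lyz2 (macrophages), Adipoq and Plin1 (adipocytes) at most 1 in any library. Other markers on those lists were present, among them Krt14 at 524 to 675 normalized counts over the 8 libraries, Pdgfra at 344 to 583, Lipe at 317 to 548, Cd68 at 145 to 249 and Cd74 at 51.2 to 133.

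The genomic letters that STAT5 proteins are known to bind, TTCNNNGAA, read the same on both strands and were looked for in the 250 bases before each RefSeq transcription start (GRCm38.p6). RefSeq entries were at hand for 7 of the 10 genes, with 10 start sites between them, and 2 of these windows held the motif. They were those of Csn2, which had no row, and Prlr, which had almost no counts. The 30 bases around each match are shown, with the motif in capitals, because these 2 genes, among the 7 searched, have the letters that STAT5 proteins read. Btn1a1, Xdh and Csn3 had no entry and were not searched. The Csn2 stretch lies at chr5:87699499-87699528 on the minus strand, with the motif starting 93 bases before the start site, and the Prlr stretch at chr15:10223786-10223815 on the plus strand, with the motif starting 110 bases before 1 of 3 start sites.
Csn2: tcacgtagacTTCTTGGAAttgaagggact
Prlr: gcaaaatgagTTCTAGGAAtaagggatatc
Of all 32851 promoter windows of this length, 2306 (7.02%) held the motif. A match is a description of letters and was not read as a bound site. The windows of Plin2, Mfge8, Wap, Lalba and Stat5a held no match.

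Of the milk protein genes only Csn3 could be counted, at a low level in both fractions. Csn2 (β-casein), Lalba (α-lactalbumin, which turns a galactosyltransferase into lactose synthase) and Wap (whey acidic protein) had no row in either table of values. They lie on GRCm38 chromosome 5 (87692624 to 87699630), chromosome 15 (98480400 to 98482721) and chromosome 11 (6635482 to 6638637), all on the minus strand. Every gene listed had at least 1 count in all, but Gpat4 and Pnp, which most cells use, had no row either, so a missing row cannot be read as no expression.

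Csn3 encodes κ-casein, which keeps casein micelles in suspension, and it was the only member among the milk proteins with a row (ENSMUSG00000001622; chromosome 5, 87925579 to 87932665, plus strand). It had 42.0, 43.4, 20.9 and 36.8 normalized counts in 4T1-Sca1+ replicates 1 to 4. Those of 4T1-Sca1- cells had 25.8, 27.7, 27.8 and 36.5 normalized counts. The groups overlapped, because 4T1-Sca1+ replicate 3 was the lowest of all 8 libraries while replicates 1 and 2 of that group were the highest. The means were 35.8 ± 10.3 and 29.5 ± 4.80 (SD, n = 4), with a log2 fold change, 4T1-Sca1+ over 4T1-Sca1-, of 0.31 (SE 0.22). Without 4T1-Sca1+ replicate 3 the log2 fold change was 0.48. These values rest on 21 to 46 counts per library, and the mean level was at percentile 7.10 of the genes tested.

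The other milk protein genes on the list used for context mostly had no row or few counts as well. Csn1s1, Csn1s2a, Csn1s2b, Glycam1 and Lpo had no row, and Wfdc18, Trf and Muc15 had at most 3 counts in each library. Of 13 such genes 8 had a row and 3 were tested. All 3 were called higher in 4T1-Sca1+ cells, as were 31.3% of all genes tested. Among them, Pigr passed the low-count filter only through the 4T1-Sca1+ libraries and, if called, could only be higher. Calls came from edgeR's quasi-likelihood test with Benjamini-Hochberg adjustment over all genes tested. Ltf, the iron-binding lactoferrin, had 206 ± 27.6 against 20.4 ± 4.59 normalized counts (log2 fold change 3.33, SE 0.16, adjusted p = 8.53e-12). Muc1, an apical mucin also found on the milk fat globule, had 47.7 ± 6.40 against 24.7 ± 5.38 (log2 fold change 0.94, SE 0.19, adjusted p = 0.000305). Pigr, the receptor that carries immunoglobulin A into secretions, had 14, 25, 22 and 23 counts in the 4T1-Sca1+ libraries and 1, 0, 1 and 0 in the 4T1-Sca1- libraries (adjusted p = 5.32e-07), so the size of its difference is imprecise. These genes are also expressed by epithelia and immune cells outside lactation.

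The genes of milk fat secretion were all expressed, and Btn1a1 and Xdh, whose proteins are thought to bind each other in the gland, moved in opposite directions. Btn1a1 was lower and Xdh higher in 4T1-Sca1+ cells, whereas Plin2 and Mfge8 differed by far less. In bulk libraries, fewer cells with a transcript and less of it per cell cannot be told apart, which holds for every level given here.

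Btn1a1 encodes butyrophilin, the membrane protein for which the family is named and a main protein of the milk fat globule membrane (ENSMUSG00000000706; chromosome 13, 23456992 to 23465901, minus strand). In 4T1-Sca1+ replicates 1 to 4 it had 78.6, 81.8, 68.8 and 91.9 normalized counts. In 4T1-Sca1- replicates 1 to 4 it had 451, 435, 470 and 433 normalized counts. Every 4T1-Sca1- library lay far above every 4T1-Sca1+ library, and within each fraction the values were close together. The means were 80.3 ± 9.51 and 447 ± 17.1 (SD, n = 4), so the transcript was 5.57-fold higher in 4T1-Sca1- cells. The log2 fold change was -2.46 (SE 0.09). Its relative Btn2a2 had 2 to 10 counts per library and was not tested. The summed normalized counts of 8 myoepithelial markers of 8 were higher in the same fraction as Btn1a1, at 633 to 711 in 4T1-Sca1- and 559.6 to 609.6 in 4T1-Sca1+ libraries. Nearly all of them came from Krt14, while Krt5 and Acta2 had at most 3 counts in any library. Trp63, Acta2, Myh11 and Krt5 leaned the other way. Their mean normalized counts in 4T1-Sca1+ against 4T1-Sca1- were 4.72 against 1.57, 2.58 against 0, 2.54 against 1.87 and 0.742 against 0. Krt17, Cnn1 and Oxtr leaned as Krt14 did, at 27.3 against 31.1, 0.666 against 1.58 and 2.15 against 2.71. The part of these markers in the Btn1a1 difference was not tested.

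Xdh encodes xanthine oxidoreductase, a molybdenum enzyme that makes uric acid from purines and that is also needed for milk fat droplets to leave the cell (ENSMUSG00000024066; chromosome 17, 73883895 to 73950196, minus strand). In 4T1-Sca1+ replicates 1 to 4 it had 1546, 1458, 1554 and 1493 normalized counts. The 4T1-Sca1- replicates 1 to 4 had 517, 511, 537 and 590.1 normalized counts. All 4 4T1-Sca1+ libraries were above all 4 4T1-Sca1- libraries. The means were 1513 ± 45.1 and 539 ± 36.0 (SD, n = 4), a 2.81-fold higher level in 4T1-Sca1+ cells. The log2 fold change was 1.50 (SE 0.06). Lists of leukocyte, fibroblast and adipocyte markers were higher in the same libraries as Xdh. The summed normalized counts of 8 counted leukocyte markers of 10 were 403 to 469 in 4T1-Sca1+ and 226 to 264 in 4T1-Sca1- libraries. Those of 6 fibroblast markers of 8 were 634 to 671 and 391 to 466, and those of 6 adipocyte markers of 8 were 454 to 557 and 324 to 375. Pdgfra gave most of the fibroblast sum and Lipe nearly all of the adipocyte sum, in which 4 of the 6 counted markers were at the floor. Of the 8 counted leukocyte markers 4 were tested, and all 4 were called higher in 4T1-Sca1+ cells by edgeR, as were 31.3% of all genes tested. Cd68 had 236 ± 18.4 against 152 ± 9.67 normalized counts (adjusted p = 6.06e-06). Cd74 had 125 ± 6.42 against 65.5 ± 15.1 (adjusted p = 1.03e-05) and Csf1r 39.8 ± 4.79 against 17.8 ± 4.31 (adjusted p = 8.38e-05). S100a8, at 38.5 ± 5.50 against 7.52 ± 3.54, passed the low-count filter only through the 4T1-Sca1+ libraries. If called, it could thus only be higher. Leukocyte markers left untested leaned both ways, with total counts of 10 against 2 for Ptprc and 10 against 11 for Itgam. The untested fibroblast markers Dcn and Pdgfrb leaned to 4T1-Sca1+, with mean normalized counts of 11.4 against 1.06 and 6.19 against 0.257. Col1a2 had 4.43 against 4.61. The untested adipocyte marker Fabp4 had 6.35 against 4.68. Ptprc, Lyz2, Adipoq and Plin1 were at or near 0, and the part of other cell types in the Xdh difference was not tested.

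**Figure D1:**
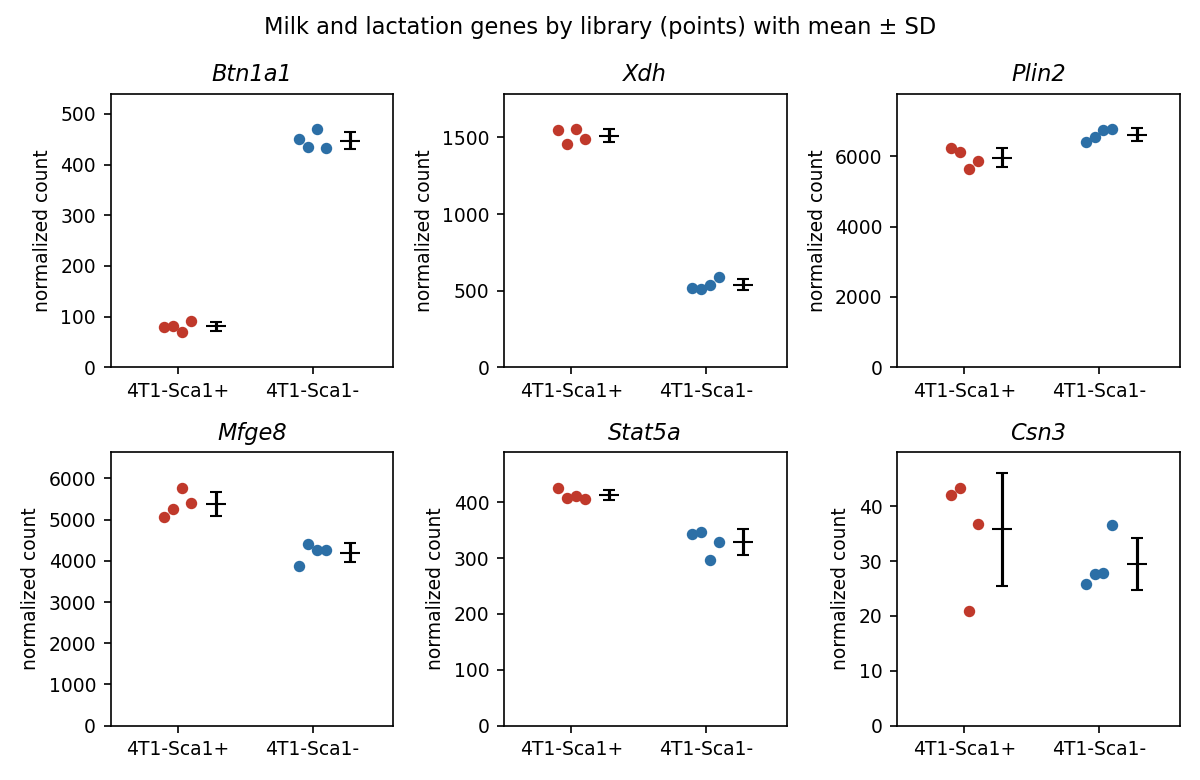
Normalized counts (vertical axes, each from 0) of the 6 milk and lactation genes tested, with 1 point per library, 4 libraries for each of 4T1-Sca1+ (red) and 4T1-Sca1- (blue), and the mean with its SD as the bar beside the points. Btn1a1 sits at 68.8 to 91.9 against 433 to 470 and Xdh at 1458 to 1554 against 511 to 590.1, while the points of Csn3 overlap between the groups.

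Because both genes were measured in the same libraries, their ratio was taken within each library on levels per exon length, as CPM (counts scaled to library size) per kilobase of exon. The Xdh level per length was 8.83, 8.00, 10.1 and 7.29 times that of Btn1a1 in 4T1-Sca1+ replicates 1 to 4. In 4T1-Sca1- replicates 1 to 4 the same ratio was 0.515, 0.527, 0.513 and 0.612. Xdh was thus the higher of the pair in every 4T1-Sca1+ library and the lower in every 4T1-Sca1- library. The mean ratios were 8.56 ± 1.22 and 0.542 ± 0.0475 (SD, n = 4), and since both genes were chosen with these values known, no test was made.

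Plin2 encodes perilipin-2, or adipophilin, which coats lipid droplets in the cytoplasm of most cells and in the gland (ENSMUSG00000028494; chromosome 4, 86648386 to 86670060, minus strand). It had 6233, 6116, 5628 and 5877 normalized counts in 4T1-Sca1+ replicates 1 to 4. Replicates 1 to 4 of 4T1-Sca1- cells had 6410.0, 6540.2, 6762 and 6774 normalized counts. The lowest 4T1-Sca1- library was just above the highest 4T1-Sca1+ library. The means were 5963 ± 269 and 6622 ± 178 (SD, n = 4), a 1.11-fold higher level in 4T1-Sca1- cells with a log2 fold change of -0.14 (SE 0.04).

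Mfge8 encodes lactadherin, a protein of the milk fat globule that also links dying cells to the integrins of phagocytes (ENSMUSG00000030605; chromosome 7, 79133768 to 79149060, minus strand). It had 5069, 5265, 5776 and 5395 normalized counts in 4T1-Sca1+ replicates 1 to 4. In 4T1-Sca1- replicates 1 to 4 it had 3877, 4411, 4259 and 4261 normalized counts. Every 4T1-Sca1+ library was above every 4T1-Sca1- library. The means were 5376 ± 298 and 4202 ± 228 (SD, n = 4), a 1.28-fold higher level in 4T1-Sca1+ cells. The log2 fold change was 0.37 (SE 0.05), and it was 0.25 when library offsets were corrected for transcript GC content, which is 56.2% in Mfge8.

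The receptor of the prolactin pathway was almost without reads, while its transcription factor was present in both fractions. Prlr, the prolactin receptor (ENSMUSG00000005268; chromosome 15, 10177238 to 10349180, plus strand), had 0, 0, 1 and 1 counts in 4T1-Sca1+ replicates 1 to 4 and 0 in each 4T1-Sca1- library. Both fractions were at or under the 3 counts per library taken as the floor, which covers counting error only, so no fold is given and a difference was not detectable at this depth. Prl, the hormone itself, had 3 counts over all 8 libraries.

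Stat5a encodes a STAT5 protein that carries the prolactin signal to milk protein genes (ENSMUSG00000004043; chromosome 11, 100859351 to 100885169, plus strand). It had 426, 408, 411 and 405 normalized counts in 4T1-Sca1+ replicates 1 to 4. The 4 4T1-Sca1- replicates had, in order, 344, 346, 296 and 329 normalized counts. All 4 4T1-Sca1+ libraries were above all 4 4T1-Sca1- libraries. The means were 413 ± 9.19 and 329 ± 23.0 (SD, n = 4), a 1.26-fold higher level in 4T1-Sca1+ cells. The log2 fold change was 0.34 (SE 0.07), and with GC-corrected offsets it was 0.17, at a transcript GC content of 57.9%. The value is uncertain to the extent that reads are shared with the close paralog Stat5b or with Stat3. The Stat3 gene overlaps Stat5a on the opposite strand only in a short stretch, from 100885098 to 100885169. The use of strand in counting is not given in the sources used here. Stat3 itself had a log2 fold change of 0.14 (SE 0.05, adjusted p = 0.0164 by edgeR), a call lost without 4T1-Sca1- replicate 1 (adjusted p = 0.0874) or replicate 3 (adjusted p = 0.0628).

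Of all 11717 genes tested, 3668 (31.3%) were higher in 4T1-Sca1+ cells and 3538 (30.2%) lower, by edgeR at an adjusted p under 0.05. No such call is given for the members, which are described without a test. Every 4T1-Sca1+ library was above every 4T1-Sca1- library for 3 of the 6 members that passed the filter (Xdh, Mfge8 and Stat5a). The same held for 26.8% of all genes tested. Every 4T1-Sca1+ library was below for 2 members (Btn1a1 and Plin2) and for 27.9% of all genes tested. As the members were chosen on this contrast, nothing is read from these shares.

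Between genes, levels were compared only per exon length, in CPM per kilobase of exon. In 4T1-Sca1+ cells Plin2 (112 ± 5.33) and Mfge8 (75.7 ± 3.99) were the highest, followed by Xdh (10.9 ± 0.315), Stat5a (3.82 ± 0.0897), Btn1a1 (1.29 ± 0.155) and Csn3 (0.570 ± 0.165). In 4T1-Sca1- cells the order was Plin2 (124 ± 3.46), Mfge8 (58.7 ± 3.14), Btn1a1 (7.11 ± 0.283), Xdh (3.85 ± 0.261), Stat5a (3.02 ± 0.206) and Csn3 (0.465 ± 0.076), all SD with n = 4. Neighbours in either order were farther apart than their SDs. With the longest transcript as the length in place of all exons, Stat5a (5.44) came before Xdh (4.54) in 4T1-Sca1- cells, and Csn3 (1.35) came close to Btn1a1 (1.55) in 4T1-Sca1+ cells.

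**Figure D2:**
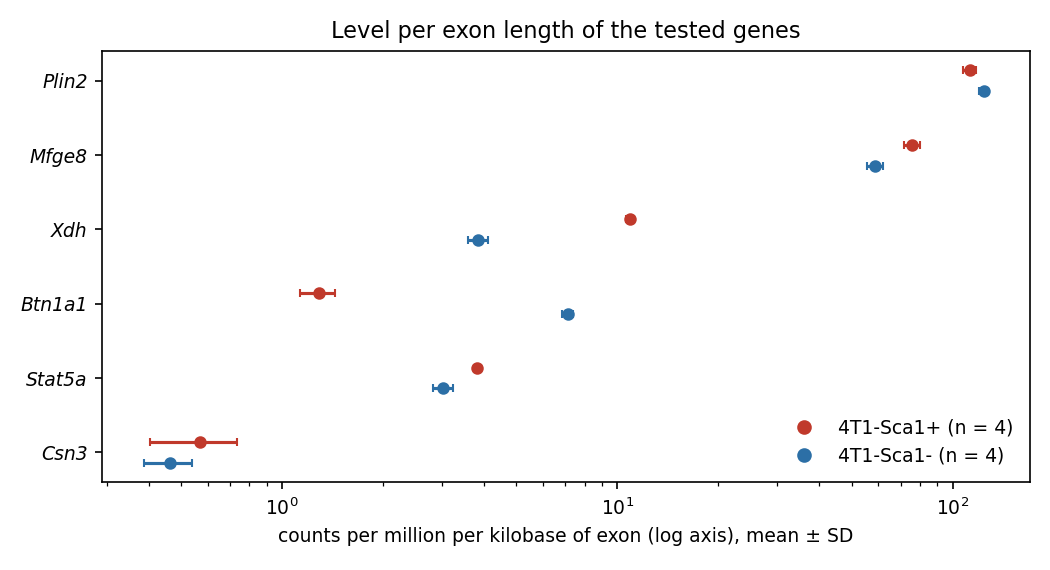
Level per exon length of the 6 milk and lactation genes tested, in CPM (counts scaled to library size) per kilobase of exon on a log axis, as the mean and SD of 4 libraries in 4T1-Sca1+ (red) and 4T1-Sca1- (blue) cells. Plin2 and Mfge8 lie farthest right, Csn3 farthest left, and Btn1a1 and Xdh trade places between the groups.

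Beyond counting error, replicates varied little for most of these genes by edgeR's estimate, which is drawn toward that of other genes. The biological coefficient of variation was 0.0447 for Stat5a, 0.0461 for Xdh, 0.0480 for both Btn1a1 and Plin2 and 0.0525 for Mfge8, against a median of 0.0540 over the genes tested. That of Csn3 was 0.112, at percentile 97.1. The observed SD, counting error included, was 11.8% of the mean for Btn1a1 in 4T1-Sca1+ libraries and 3.82% in 4T1-Sca1- libraries.

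The genes whose profile over the 8 libraries was most like that of Btn1a1 were Vgll3 (Pearson r = 0.9981), 1700123O20Rik (0.9981), Cxcl1 (0.998), Tnfaip3 (0.9977) and Edn1 (0.9976). Those most like Xdh were Olfm1 (0.9992), Rps6ka2 (0.9989), Il33 (0.9987), Antxr1 (0.9985) and Hhip (0.9979). These correlations are of log2 CPM over 8 libraries that fall into 2 groups, so they describe mainly the shared difference between the groups, and no p is given.

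The genes that work beside the members were described from lists that leave the members out. Of 102 genes on 6 such lists 87 had a row and 69 were tested, 33 of which were higher and 18 lower in 4T1-Sca1+ cells (edgeR, adjusted p under 0.05), with a median log2 fold change of 0.14 against 0.01 over all genes tested. The share higher or lower among all genes was 31.3% and 30.2%. The lists were drawn up with earlier results of these data known. Nothing is therefore read from these counts, shares or medians, or from those of single lists. Pigr, among the genes higher, passed the low-count filter only through the 4T1-Sca1+ libraries.

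Among partners and relatives of the members, 16 of 23 genes were tested, with a median log2 fold change of 0.25. Of these, 9 were higher and 2 lower, against 31.3% and 30.2% of all genes tested. Aox1, an aldehyde oxidase that uses the same molybdenum cofactor as xanthine oxidoreductase, had 739 ± 15.1 against 199 ± 5.01 normalized counts (log2 fold change 1.90, SE 0.06, adjusted p = 5.46e-14 by edgeR), the same direction as Xdh. Mocos, which adds the sulfur that both enzymes need, had a log2 fold change of 0.90 (SE 0.08, adjusted p = 6.72e-08). The genes that build the cofactor did not move together, since Mocs1 was higher (0.47, adjusted p = 8.04e-05), Mocs2 lower (-0.54, adjusted p = 9.14e-06) and Gphn lower (-0.19, adjusted p = 0.0137), while Mocs3 at 0.22 did not pass (adjusted p = 0.153). Gphn lost its call with library totals alone as the scaling (adjusted p = 0.0542).

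Partners of Plin2 and Mfge8 were mixed. Plin3, another droplet coat protein, was higher in 4T1-Sca1+ cells (log2 fold change 0.27, adjusted p = 0.000999), whereas Plin1 and Plin4 had at most 3 counts in each library and Plin5 had no row. Abhd5, which activates the droplet lipase, was higher (0.64, adjusted p = 9.82e-09), and the lipase gene Pnpla2 stood at -0.03 (adjusted p = 0.679), with -0.18 and a call (adjusted p = 0.000399) under GC-corrected offsets. Of the integrins that lactadherin binds, Itgb3 rose most (768 ± 47.2 against 407 ± 23.3 normalized counts, log2 fold change 0.93, adjusted p = 1.05e-09). Itgb5 was higher by 0.23 (adjusted p = 0.000684), or 0.08 with GC-corrected offsets, and Itgav stood at -0.08 (adjusted p = 0.253). Edil3, a relative of Mfge8, had a log2 fold change of 0.32 (adjusted p = 0.273), and the purine enzyme Ada one of -0.09 (adjusted p = 0.439).

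In the prolactin and STAT5 list 18 of 23 genes were tested, with a median log2 fold change of 0.07. Of these, 9 were higher and 5 lower, against 31.3% and 30.2% of all genes tested. Jak2 and Stat5b are also on the partner list and were counted as higher in both. Jak2, the kinase bound to the prolactin receptor and to other cytokine receptors, had 2663 ± 115 against 1475 ± 62.5 normalized counts (log2 fold change 0.86, SE 0.05, adjusted p = 9.59e-11 by edgeR). Stat5b was higher by 0.17 (adjusted p = 0.0413), a call that was lost under 9 of the alternatives, and its log2 fold change without 4T1-Sca1+ replicate 3 was 0.08. Cish and the Socs genes encode inhibitors that STAT proteins induce and that feed back on the kinase. Cish was higher by 0.59 (adjusted p = 0.000947), Socs1 by 0.85 (adjusted p = 0.000186) and Socs3 by 0.40 (adjusted p = 0.00165; 0.20 with GC-corrected offsets), while Socs2, with 205 ± 31.9 against 211 ± 21.9 normalized counts, did not pass (adjusted p = 0.846).

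Cav1, which restrains JAK2 signaling in the gland, had the largest decrease of this list, with 265 ± 12.0 against 638 ± 32.9 normalized counts (log2 fold change -1.26, SE 0.06, adjusted p = 2.67e-11 by edgeR). The phosphatase genes split, with Ptpn2 (-0.42, adjusted p = 1.43e-05) and Ptpn11 (-0.34, adjusted p = 1.15e-06) lower and Ptpn1 (0.20, adjusted p = 0.0015; 0.09 with GC-corrected offsets) higher. Cebpb, a transcription factor needed for the growth of milk-secreting lobules, was higher (1.13, SE 0.09, adjusted p = 1.67e-08), or 0.67 with GC-corrected offsets, and it overlaps Tmem189 on the opposite strand. Ccnd1 (0.44, adjusted p = 8.52e-08) and Id2 (0.38, adjusted p = 0.0002) were higher as well. The glucocorticoid receptor Nr3c1 was lower (-0.35, adjusted p = 4.05e-05), and so was Nfib (-0.19, adjusted p = 0.00666), which lost its call with GC-corrected offsets (adjusted p = 0.0523). Ghr, Bcl6 and Esr1 stood at -0.09, -0.04 and -0.09 without passing the threshold, with adjusted p of 0.333, 0.563 and 0.452. Erbb4 was at the floor, and Pgr and Tnfsf11 had no row.

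**Figure D3:**
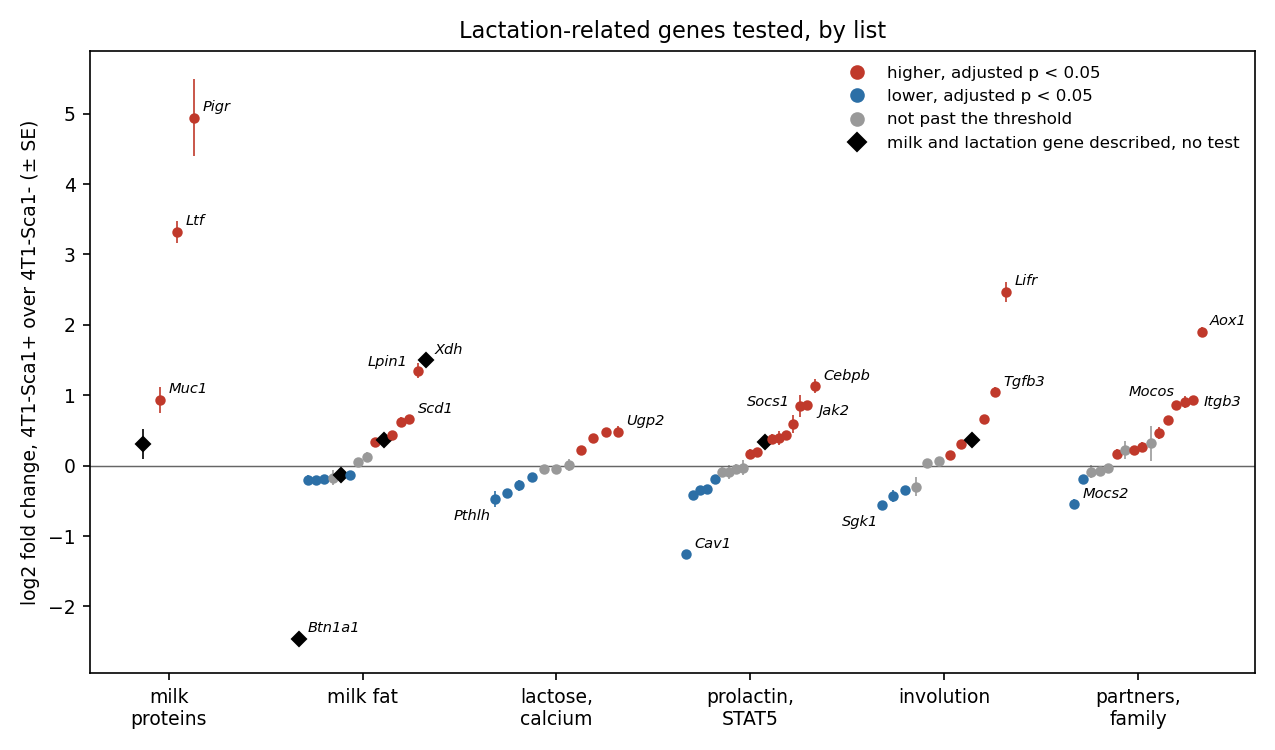
Log2 fold change, 4T1-Sca1+ over 4T1-Sca1-, with its SE (vertical axis) for the tested genes of 6 lactation-related lists, where red and blue points were higher and lower past an adjusted p under 0.05, grey points did not pass, and black diamonds are milk and lactation genes described without a test. Btn1a1 is the lowest point at -2.46 and Xdh stands at 1.50 in the same list, while Pigr at the top rests on 2 counts over the 4T1-Sca1- libraries. Pigr passed the low-count filter only through the 4T1-Sca1+ libraries.

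The other lists held changes in both directions. Of 20 further milk fat genes 12 were tested, with a median log2 fold change of 0.08. Higher were 5 and lower 4, against 31.3% and 30.2% of all genes tested. Lpin1, which makes diacylglycerol for triglyceride synthesis, was the highest (1.35, SE 0.11, adjusted p = 7.78e-09 by edgeR), followed by the desaturase Scd1 (0.66, adjusted p = 3.61e-08). The lowest were Gpam, which adds the first fatty acid to glycerol (-0.20, adjusted p = 0.0161, or 0.0534 with library totals alone), and Acly, which makes cytosolic acetyl-CoA (-0.20, adjusted p = 0.000371). Cd36 and Lpl, which bring fatty acids into the lactating cell, had at most 1 count in any library.

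Of 13 lactose and calcium genes 11 were tested, with a median log2 fold change of -0.04. Higher were 4 and lower 4, against 31.3% and 30.2% of all genes tested. Ugp2, which makes UDP-glucose, and the glucose carrier Slc2a1 were each higher by 0.48 (adjusted p = 3.96e-05 and 4.64e-07 by edgeR). Pthlh, a hormone that the lactating gland releases to free calcium from bone, was lower (-0.47, adjusted p = 0.0016), as was the calcium sensor Stim1 (-0.39, adjusted p = 1.08e-05).

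Of 12 involution genes 11 were tested, with a median log2 fold change of 0.07. Higher were 5 and lower 3, against 31.3% and 30.2% of all genes tested. Lifr, the receptor for LIF, which starts the regression of the gland after weaning, had 121 ± 5.98 against 22.0 ± 3.32 normalized counts (log2 fold change 2.47, SE 0.14, adjusted p = 1.22e-10 by edgeR). Lif itself was lower, with 3265 ± 149 against 4193 ± 103 (log2 fold change -0.35, SE 0.04, adjusted p = 3.14e-06). Tgfb3 was higher by 1.05 (adjusted p = 2.82e-10) and overlaps Ttll5 on the opposite strand. Sgk1 (-0.56, adjusted p = 4e-08) and Anxa8 (-0.43, adjusted p = 0.000416) were lower.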

How the data were processed

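Total RNA from 4 4T1-Sca1+ and 4 4T1-Sca1- samples had been sequenced on a NextSeq 500. The authors deposited raw counts per Ensembl gene and a table of normalized signal for 15372 genes, whose values equalled the counts divided by DESeq2 size factors. The submitters' processing notes name cutadapt 1.16, STAR 2.5.3a and the builds GRCm38 and mm10. The counting tool, annotation and use of strand are not given in the sources used here.

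Symbols, positions and exon lengths came from GENCODE release M21 on GRCm38, which held 16202 of the genes counted and lacked 139. Counts were tested with edgeR 4.0.16 in R 4.3.3 (filterByExpr, TMM, glmQLFit and glmQLFTest, two-sided, no covariate), with Benjamini-Hochberg adjustment over all genes tested and an adjusted p under 0.05 called. SE is the absolute log2 fold change divided by the square root of F. As the libraries carried no stated molecular identifiers, amplified copies may be counted more than once, and the floor of 3 counts covers counting error only.

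The genes and lists were chosen with earlier results of these data known. Named were all 10 members, the counted genes of the partner and prolactin lists, the 2 highest and 2 lowest genes of each other list, the 5 genes most like Btn1a1 and Xdh (prior count 2), and genes at or near 0. Stat3, Lif, Gpat4, Pnp and the expressed markers of other cell types were named after their values were seen. Alternatives used DESeq2 1.42.0 and limma 3.58.1 (on the signal, log2 of value + 1), other scalings, filters and thresholds, GC-corrected offsets, and 8 fits that left out 1 library each. Scripts were tested on simulated data.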

Additional observations from a re-analysis of the deposited data

Results flagged for a closer look

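In 10 of 120 group tests on the genes named, 1 library stood apart from the other 3 of its group by Dixon's criterion, where chance alone gives about 1 in 20, or 6. The genes examined were narrowed to those named after a wider set had been seen. None of the 10 was a member of the milk and lactation set. Among partners, the normalized count of Abhd5 was 1106 in 4T1-Sca1+ replicate 3 against 1212 to 1226 in the others, that of Itgb5 was 2045 in 4T1-Sca1- replicate 2 against 1872 to 1892, and that of Pnpla2 was 2034 in 4T1-Sca1- replicate 2 against 1728 to 1778. Jak2 had 1568 in 4T1-Sca1- replicate 1 against 1433 to 1454, and Nfib had 2485 in the same library against 2137 to 2148. Scd1 had 921 in 4T1-Sca1+ replicate 3 against 984 to 994, Stim1 had 655 in 4T1-Sca1+ replicate 4 against 745 to 760, and Tgfb3 had 919 in 4T1-Sca1+ replicate 1 against 1054 to 1076. Lif had 3043 in 4T1-Sca1+ replicate 4 against 3320.4 to 3358, and the marker Cd68 had 208 in 4T1-Sca1+ replicate 3 against 243 to 249.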

How the results depend on the processing

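Of 108 recomputed fold changes of the 6 tested members, 106 moved by less than 1 SD of the replicates and none changed sign. The other 2 were those of Mfge8 (0.25) and Stat5a (0.17) with GC-corrected offsets. Calls fell to 612 higher and 103 lower among all genes, and to 7 and 1 among list genes, when a log2 fold change of 1 or more in size was also required, by that rule's construction. Leaving out each library gave 3397 to 3642 higher and 3286 to 3548 lower among all genes. Samples of the same replicate number shared no visible deviation (correlations of deviations -0.1498 to 0.0957). These correlations cannot show whether the samples were paired by culture or sort. With a replicate block 3605 genes were higher and 3452 lower, with 33 and 19 among list genes. Genes without a call that changed sign were Bcl6 (0.0021) and Pnpla2 (0.013) with library totals, Ghr (0.024), Itgav (0.012) and Mocs3 (-0.076) with GC-corrected offsets, and Socs2 with library totals (0.016), upper-quartile scaling (0.0030) and GC-corrected offsets (0.040). Without single libraries Pnpla2 ran from -0.088 to 0.021 and Socs2 from -0.13 to 0.046. The cause was not tested. Depth limits Csn3 and, above all, Prlr, and missing rows leave Csn2, Lalba and Wap unmeasured.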
